A study of Mus musculus with 14 samples.

Results

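The response of liver sinusoidal endothelial cells (LSECs) 3 days after a single injection of carbon tetrachloride (CCl4) was compared with LSECs of healthy mice across all genes of an RNA sequencing count table. The comparison takes 8 of the 14 samples of the series, 4 healthy and 4 of day 3, chosen by their labels alone. Healthy samples came from untreated male Balb/c mice aged 10 to 12 weeks, and day 3 samples from male Balb/c mice of the same age range that received CCl4 intraperitoneally once, at 0.5 µL per gram of body weight in mineral oil. The ages are those of the labels, and the study's methods give an older range. The controls received no oil, so that CCl4, its vehicle and the injection cannot be told apart. Cells were sorted without culture by a gate that took CD32+ cells and left out those with F4/80, ultraviolet autofluorescence or propidium iodide. The study's methods add a gate against CD45 that the labels do not list. A cell that lost CD32 would not be in the day 3 samples. The other 2 samples of day 1 and 4 samples of day 7 entered the same statistical model, and day 7 serves as the second comparison. Neither labels nor methods state that each sample is a different mouse, so that p-values measure the spread between these samples. Values of single samples are given in the order of replicates 1 to 4.

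LSECs line the hepatic sinusoids. They carry open fenestrae, lack an organised basement membrane and clear waste from blood through scavenger and mannose receptors. CCl4 is activated by cytochrome P450 in pericentral hepatocytes, which die, and the lobule is then rebuilt by dividing cells while stellate cells and infiltrating monocytes lay down and remodel matrix. Loss of the specialised LSEC phenotype during injury is known as capillarization. In dividing cells, E2F factors drive the genes of DNA replication, and a later wave under B-Myb and FoxM1 drives the genes of mitosis.

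Between 85458439 and 103912264 reads were counted on genes in the healthy samples and between 62635645 and 93345913 at day 3. Expression is given as CPM, the read count scaled to a common TMM-adjusted library total, a scale for comparing samples and not genes. The samples of day 3 were not alike. Replicates 1 and 2 had 34678 and 34768 genes with a count, replicates 3 and 4 had 28203 and 22986, and the healthy samples had 28534 to 30735. The 10 LSEC markers fixed for the check of the label, among them Stab2, Clec4g and Lyve1, were all above the floor of 3 counts in each group. Their CPM summed to 18695 to 22924 in healthy samples and to 11379 to 15419 at day 3, and 1 of them was called higher and 3 lower. The 5 pan endothelial markers fixed for the same check, among them Tek, summed to 1556 to 1841 CPM in healthy samples. At day 3 their sums were 869, 1081, 1219 and 1535 CPM, each below each healthy sample. Of these markers 0 were called higher and 1, Tek, lower. The summed CPM of 11 monocyte and neutrophil markers was 556, 1374, 1123 and 509 in the healthy samples and 12728, 7977, 1462 and 1361 at day 3, so that day 3 replicates 1 and 2 stood apart. Most of each of these sums came from Lyz2, whose values are given with the leukocyte markers. Sums over 19 stellate cell markers were 259, 214, 271 and 386 CPM in healthy samples and 1731, 1547, 692 and 1183 at day 3. Sums over 8 cholangiocyte markers were 195, 81.1, 137 and 194 CPM in healthy samples and 1014, 1184, 323 and 361 at day 3, each sample of day 3 above each healthy sample. The markers did not rise as a set. Of the 7 tested, 1 was called higher, and the median log2 fold change was 0.13. Only 1 of the 7 had all samples of day 3 above all healthy samples. No marker of any of these lists was below the floor in all samples. Hepatocyte markers summed to 12562 CPM in healthy replicate 4 and to between 293 and 558 in the other healthy samples, against 1146 to 3968 at day 3. The part of these markers in the results that follow was not tested. In sorted bulk cells, a change in the number of cells of a type and a change of RNA per cell cannot be told apart.

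At day 3, 1229 genes were higher and 686 lower than in healthy LSECs among 26626 tested (edgeR's quasi-likelihood test, Benjamini-Hochberg adjusted p under 0.05). Called rises were thus 4.62% of the tested genes and called falls 2.58%, 7.19% together, and these shares are the background for the gene lists. Rises were larger than falls. The median log2 fold change was 2.06 over the genes that rose, -0.95 over those that fell and 0.18 over all tested genes. Of the rises 641 exceeded 4-fold and 238 exceeded 8-fold, while 46 and 16 of the falls did. For 1759 of the 1915 called genes, the 4 samples of day 3 lay entirely above or entirely below the 4 healthy samples. All samples of day 3 lay above all healthy samples for 7.53% of the tested genes and below for 6.84%. The number of calls moved with single samples. It was 960, 946, 1061 and 1173 without healthy replicates 1 to 4 and 3314 without day 3 replicate 4. Rises made up 64.2% of the calls, and 75.1% with scaling to the library size alone. This share was 47.3% with no filter on low counts and 49.3% without day 3 replicate 3, so that rises were then not the majority. The plot of fold change against level shows the rises reaching further from 0 than the falls.

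**Figure D1:**
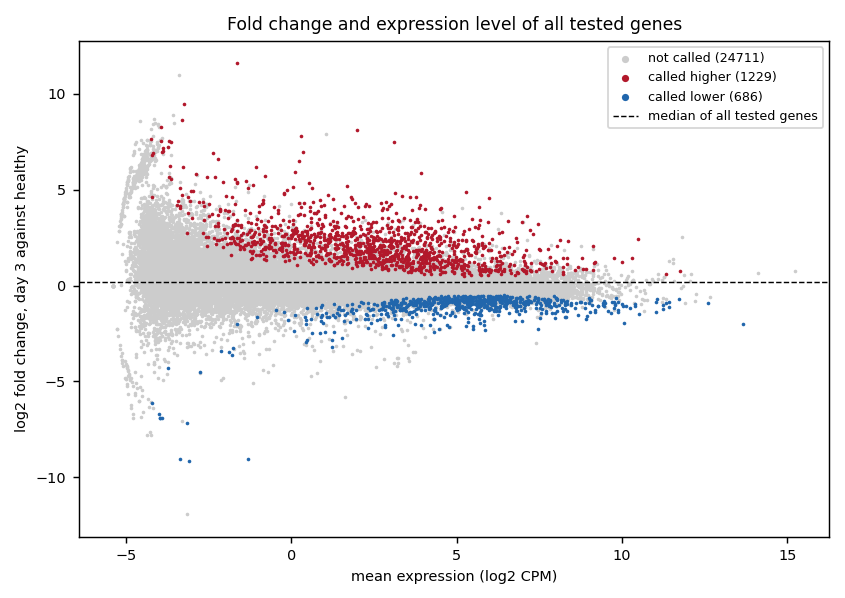
Log2 fold change of day 3 against healthy LSECs (vertical axis) plotted against mean log2 CPM over the 8 samples (horizontal axis) for 26626 tested genes. Points in red are the 1229 genes called higher, points in blue the 686 called lower, grey points were not called, and the dashed line is the median of all tested genes at 0.18.

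Many genes of DNA replication rose. Of 51 tested genes 30 were called higher and 0 lower (background 4.62% and 2.58%), and the median log2 fold change was 1.25. By role, 12 of 20 genes of the MCM helicase and its loading, 13 of 24 polymerase, clamp and ligase genes and 5 of 7 genes of nucleotide supply were higher. Uhrf1 (chromosome 17, 56303321 to 56323486), which recruits the maintenance methyltransferase to newly made DNA, was at 6.23, 5.59, 9.09 and 4.34 CPM in the healthy samples and 25.7, 16.8, 84.2 and 92.3 CPM at day 3 (log2 fold change 3.12, standard error 0.49, edgeR adjusted p = 0.00317). Clspn, the adaptor of the replication checkpoint, was at 5.05, 3.37, 4.62 and 2.15 CPM in the healthy samples and 21.5, 10.1, 41.0 and 40.2 CPM at day 3 (log2 fold change 2.89, standard error 0.48, edgeR adjusted p = 0.00465). All 4 samples of day 3 lay above all healthy samples in both genes, and replicates 3 and 4 were the highest. Cdc6, which loads the helicase at origins, was at 2.29, 1.95, 3.42 and 1.47 CPM in the healthy samples and 8.12, 4.15, 26.5 and 27.6 CPM at day 3 (log2 fold change 2.86, standard error 0.56, edgeR adjusted p = 0.00909), again with replicates 3 and 4 well above replicate 2. Not all of the genes were uneven in this way. Gins1, a subunit of the active helicase, was at 4.002, 2.38, 2.73 and 2.56 CPM in the healthy samples and 19.7, 13.5, 19.2 and 9.71 CPM at day 3 (log2 fold change 2.41, standard error 0.31, edgeR adjusted p = 0.00141), and no replicate pair stood apart. Mcm6, part of the helicase ring, was at 20.1, 20.9, 28.0 and 19.6 CPM in the healthy samples and 65.5, 38.3, 169.8 and 174 CPM at day 3 (log2 fold change 2.34, standard error 0.39, edgeR adjusted p = 0.00479). Pcna, the sliding clamp, did not pass the test. It was at 338, 276, 243 and 164 CPM in the healthy samples and 388, 304, 331 and 191 CPM at day 3 (log2 fold change 0.25, standard error 0.24, edgeR adjusted p = 0.593), with overlapping groups. When single samples were left out, Uhrf1, Clspn, Cdc6, Gins1 and Mcm6 remained called. Without day 3 replicates 3 and 4, 22 genes of the list were called higher, and 36 without replicates 1 and 2.

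Many genes of mitosis rose too. Of 60 tested, 41 were called higher and 1 lower, with a median log2 fold change of 1.74. The counts were 12 of 17 mitotic kinase and cyclin B genes, 12 of 17 kinetochore and checkpoint genes and 17 of 26 genes of the spindle, chromosomes and exit. Mki67 (chromosome 7, 135689784 to 135716361), the proliferation antigen Ki-67, was at 25.4, 27.6, 48.1 and 13.5 CPM in the healthy samples and 90.0, 51.8, 186 and 209 CPM at day 3 (log2 fold change 2.23, standard error 0.47, edgeR adjusted p = 0.0143). Top2a, the topoisomerase that untangles sister chromatids, was at 27.9, 24.8, 40.1 and 14.5 CPM in the healthy samples and 92.2, 40.03, 154 and 171 CPM at day 3 (log2 fold change 2.09, standard error 0.43, edgeR adjusted p = 0.0118), and here day 3 replicate 2 reached into the healthy range. Cdk1, the kinase that drives entry into mitosis, was at 29.9, 26.7, 41.5 and 17.9 CPM in the healthy samples and 132, 97.5, 137 and 102 CPM at day 3 (log2 fold change 2.01, standard error 0.28, edgeR adjusted p = 0.002) with little spread among the 4 samples of day 3. Cenpm, a kinetochore subunit, was at 3.16, 2.42, 3.79 and 1.73 CPM in the healthy samples and 15.1, 8.88, 21.7 and 12.2 CPM at day 3 (log2 fold change 2.38, standard error 0.40, edgeR adjusted p = 0.00468), and Ncapg, a condensin subunit, at 3.75, 3.89, 5.14 and 2.60 CPM in the healthy samples and 13.0, 6.31, 28.7 and 28.4 CPM at day 3 (log2 fold change 2.31, standard error 0.47, edgeR adjusted p = 0.0116). Cenpa went the other way. It encodes the histone variant that marks centromeres and was at 155, 96.2, 90.8 and 109 CPM in the healthy samples and 52.1, 38.7, 50.2 and 42.0 CPM at day 3 (log2 fold change -1.30, standard error 0.19, edgeR adjusted p = 0.00268), so that each sample of day 3 was below each healthy sample. Plk1, a kinase of spindle assembly, was at 3.94, 3.96, 7.60 and 2.46 CPM in the healthy samples and 13.3, 5.60, 30.2 and 44.7 CPM at day 3 (log2 fold change 2.38, standard error 0.59, edgeR adjusted p = 0.0281). Smc4, a condensin core subunit, was not called (log2 fold change 0.46, standard error 0.19, edgeR adjusted p = 0.165). Leaving out each sample in turn, the calls of Mki67, Top2a, Cdk1, Cenpm, Ncapg and Cenpa held. This was not so for Plk1 without healthy replicate 1, 2 or 4 or day 3 replicate 3 or 4 (adjusted p up to 0.088). The number of mitosis genes called higher was 20 without healthy replicate 1 or day 3 replicate 3, 17 without healthy replicate 2 and 15 without healthy replicate 4. It was 54 without day 3 replicates 1 and 2 and 13 without replicates 3 and 4. Exons of Top2a, Ncapg and Plk1 overlap those of another annotated gene.

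Sequences upstream of these genes are shown because the members moved together and 3 short motifs are known in such promoters. The motifs searched on both strands were TTCCCGC (reverse GCGGGAA), a core of E2F sites, TTTGAA (reverse TTCAAA), the CHR element bound in mitosis genes, and CCAAT (reverse ATTGG), the NF-Y box. RefSeq promoters on GRCm38.p6, 250 bases before to 50 after the gene start, were matched by symbol to 42 of the 51 replication genes and 49 of the 60 mitosis genes. TTCCCGC was in 16 replication promoters (38.1%) and 4 mitosis promoters (8.16%), against 4.66% of 27025 promoters of all genes. TTTGAA was in 7 replication promoters (16.7%) and 32 mitosis promoters (65.3%), against 18.1% of all. CCAAT was in 27 (64.3%) and 36 (73.5%), against 37.9% of all. Of the genes called higher, 10 of 23 replication promoters held TTCCCGC and 20 of 33 mitosis promoters TTTGAA. The stretches below are 100 bases each, 5′ to 3′ on the gene's strand, ending before the first annotated transcript. They belong to the called genes with the largest rise whose motif lies in that window, with E2F cores in capitals in the 2 replication genes and with CHR elements and CCAAT boxes in capitals in the 3 mitosis genes. Passed over in this choice were genes of 1 chromosome, genes whose strand differed between the annotations used and genes whose stretch would leave the promoter.
Uhrf1, chr17:56303221-56303320, plus strand: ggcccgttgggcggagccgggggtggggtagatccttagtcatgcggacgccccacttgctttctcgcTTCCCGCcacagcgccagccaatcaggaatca
Rpa2, chr4:132768232-132768331, plus strand: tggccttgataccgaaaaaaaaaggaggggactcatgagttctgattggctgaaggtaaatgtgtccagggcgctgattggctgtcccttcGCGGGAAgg
Ncapg, chr5:45669819-45669918, plus strand: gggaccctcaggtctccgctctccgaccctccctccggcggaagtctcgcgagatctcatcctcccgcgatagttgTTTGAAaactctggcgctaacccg
Mki67, chr7:135716380-135716479, minus strand: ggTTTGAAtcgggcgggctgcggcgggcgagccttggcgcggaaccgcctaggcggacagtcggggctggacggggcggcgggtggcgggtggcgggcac
Ncapd2, chr6:125191702-125191801, minus strand: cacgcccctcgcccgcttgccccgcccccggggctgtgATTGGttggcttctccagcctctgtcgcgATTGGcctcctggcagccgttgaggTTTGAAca
No capitalised motifs share bases in these stretches. Rpa2, a subunit of the single-strand binding protein, was at 27.8, 27.9, 28.5 and 21.1 CPM in the healthy samples and 48.2, 33.7, 71.4 and 73.4 CPM at day 3 (log2 fold change 1.11, standard error 0.23, edgeR adjusted p = 0.013). Ncapd2, a condensin subunit, was at 6.44, 6.04, 8.62 and 5.56 CPM in the healthy samples and 12.5, 7.98, 28.4 and 68.6 CPM at day 3 (log2 fold change 2.14, standard error 0.53, edgeR adjusted p = 0.0279), where day 3 replicate 2 overlapped the healthy samples and replicate 4 was the highest. Under removal of any 1 sample, the calls of Rpa2 without healthy replicate 4 or day 3 replicate 3 (adjusted p up to 0.0793) and Ncapd2 without healthy replicate 1, 2, 3 or 4 or day 3 replicate 3 or 4 (adjusted p up to 0.0864) did not hold. A match is a run of letters and not a measured binding site. Exons of Ncapd2 overlap those of another annotated gene.

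Of the 31 cyclins, E2F factors and cell cycle inhibitors tested, 9 were called higher and 1 lower, and the median log2 fold change was 0.30. The rises were among the transcription factors and the G1 and S cyclins. E2f1, an activator of S phase genes, was at 4.30, 5.89, 6.42 and 5.29 CPM in the healthy samples and 17.1, 8.45, 52.2 and 65.4 CPM at day 3 (log2 fold change 2.71, standard error 0.50, edgeR adjusted p = 0.00724), and Mybl2, which encodes B-Myb, at 1.87, 1.67, 2.90 and 1.99 CPM in the healthy samples and 7.03, 3.67, 18.9 and 35.3 CPM at day 3 (log2 fold change 2.94, standard error 0.57, edgeR adjusted p = 0.00881). Foxm1, the factor of the mitotic wave, was at 4.61, 4.79, 2.32 and 1.87 CPM in the healthy samples and 8.96, 6.53, 8.69 and 51.6 CPM at day 3 (log2 fold change 2.48, standard error 0.65, edgeR adjusted p = 0.0355). In Foxm1, day 3 replicate 4 was far above the other samples. Ccne1, cyclin E1, was at 2.49, 2.06, 2.47 and 1.797 CPM in the healthy samples and 9.69, 5.92, 19.3 and 13.0 CPM at day 3 (log2 fold change 2.44, standard error 0.34, edgeR adjusted p = 0.002) with separate groups. Cdk6, the partner of D-type cyclins, was at 16.2, 15.6, 19.1 and 12.8 CPM in the healthy samples and 45.1, 48.3, 46.7 and 48.7 CPM at day 3 (log2 fold change 1.56, standard error 0.19, edgeR adjusted p = 0.00125), and its 4 samples of day 3 lay within a narrow range. Cyclin D genes did not pass: Ccnd1 had log2 fold change 0.30, standard error 0.33, edgeR adjusted p = 0.646 and Ccnd2 log2 fold change -0.45, standard error 0.20, edgeR adjusted p = 0.193. The single fall was that of Cdkn1c, which encodes the inhibitor p57, at 62.1, 43.5, 59.3 and 32.1 CPM in the healthy samples and 10.9, 11.9, 8.57 and 9.99 CPM at day 3 (log2 fold change -2.25, standard error 0.23, edgeR adjusted p = 0.000607). The samples of day 3 were all below the lowest healthy sample. Across the leave-one-out fits, the calls of E2f1, Mybl2, Ccne1, Cdk6 and Cdkn1c held. Less stable was Foxm1 without healthy replicate 1, 2, 3 or 4 or day 3 replicate 4 (adjusted p up to 0.0986). Called rises in the list numbered 5 without healthy replicate 1 or 2 and 4 without healthy replicate 4, and called falls 2 without day 3 replicate 4. Exons of Foxm1, Cdk6, Ccnd1, Ccnd2 and Cdkn1c overlap those of another annotated gene.

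**Figure D2:**
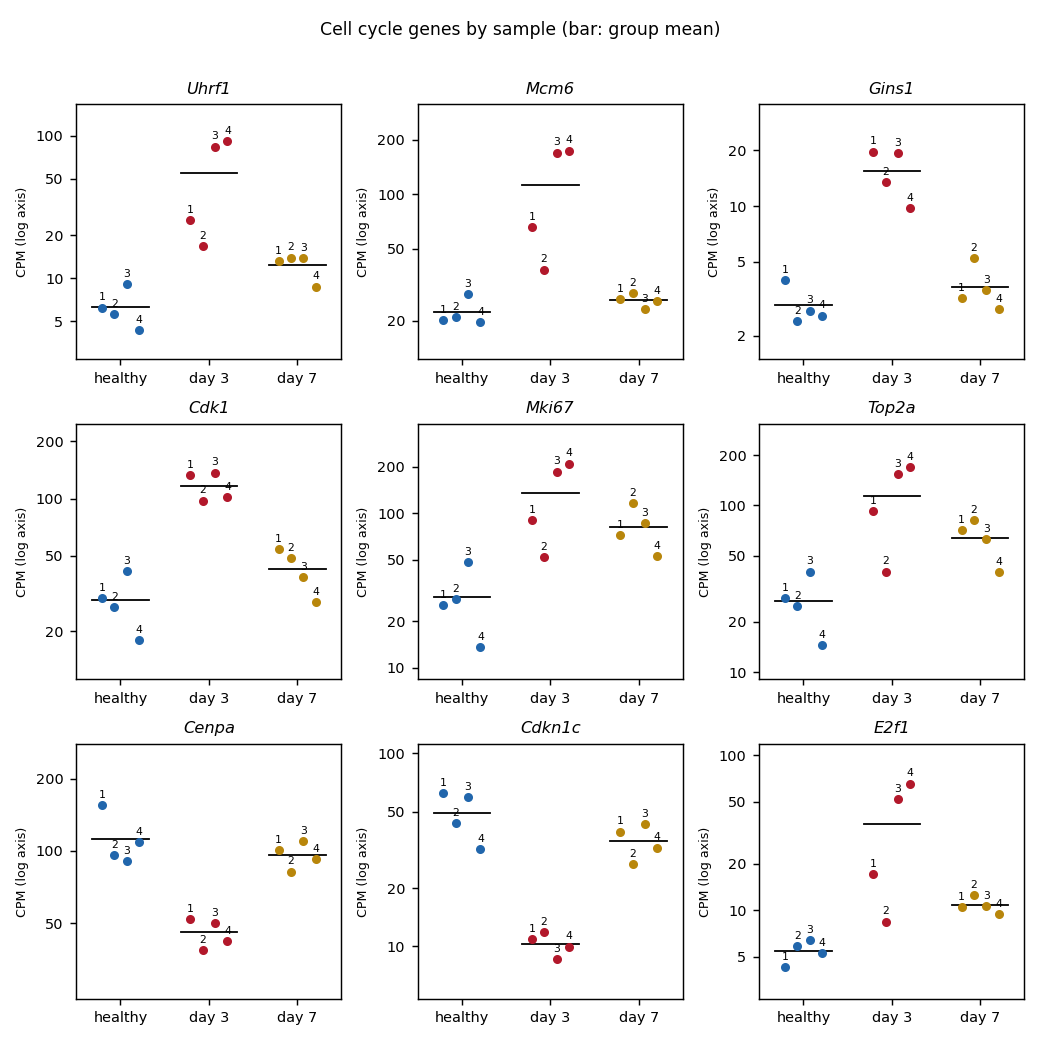
CPM on a log axis of 9 cell cycle genes in the 4 healthy, 4 day 3 and 4 day 7 samples, with the replicate number at each point and a bar at the group mean. Uhrf1, Gins1 and Cdk1 at day 3 lay above both other groups, while Cenpa and Cdkn1c lay below the healthy samples.

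Trp53 itself rose. Trp53, the tumour suppressor, was at 78.2, 72.2, 79.2 and 63.1 CPM in the healthy samples and 139, 139.8, 179 and 170.3 CPM at day 3 (log2 fold change 1.10, standard error 0.16, edgeR adjusted p = 0.00227), and every sample of day 3 was above every healthy sample. Among 16 listed genes, Trp53 and targets of p53, Trp53 was the 1 called higher and 3 were called lower (background 4.62% and 2.58%). That share of rises was near the background, and the median log2 fold change was 0.06. Cdkn1a, which encodes the inhibitor p21, was at 418, 373, 269 and 177 CPM in the healthy samples and 447, 409, 353 and 282 CPM at day 3 (log2 fold change 0.27, standard error 0.30, edgeR adjusted p = 0.658) with overlapping groups. Sesn1, a stress-induced regulator of growth signalling, was at 79.6, 71.8, 78.0 and 85.1 CPM in the healthy samples and 29.7, 20.1, 35.9 and 29.6 CPM at day 3 (log2 fold change -1.45, standard error 0.22, edgeR adjusted p = 0.0027), and Plk2 and Ccng1 had log2 fold changes of -1.19 and -0.57 (edgeR adjusted p = 0.0217 and 0.0389). In these 3 genes the samples of day 3 lay below all healthy samples. With 1 sample left out at a time, Trp53 and Sesn1 remained called. The calls of Plk2 without healthy replicate 1, 2 or 3 or day 3 replicate 1 or 2 (adjusted p up to 0.0575) and Ccng1 without healthy replicate 1, 2, 3 or 4 or day 3 replicate 2 (adjusted p up to 0.116) did not hold. Called falls in the list numbered 1 without healthy replicate 1, 2 or 3 or day 3 replicate 2. Exons of Cdkn1a overlap those of another annotated gene.

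Most of the listed DNA repair genes rose. Of 16 tested, 12 were called higher and 0 lower, with a median log2 fold change of 1.87. Brca1, a scaffold of homologous recombination, was at 1.38, 1.83, 3.02 and 1.45 CPM in the healthy samples and 10, 5.10, 20.1 and 13.7 CPM at day 3 (log2 fold change 2.67, standard error 0.42, edgeR adjusted p = 0.00331). Chek1, the checkpoint kinase, was at 2.38, 1.42, 2.17 and 1.38 CPM in the healthy samples and 7.39, 5.07, 17.9 and 13.2 CPM at day 3 (log2 fold change 2.57, standard error 0.38, edgeR adjusted p = 0.00239), and Fanca of the interstrand crosslink repair complex at 1.09, 1.33, 1.73 and 0.652 CPM in the healthy samples and 5.99, 4.76, 8.84 and 8.97 CPM at day 3 (log2 fold change 2.57, standard error 0.36, edgeR adjusted p = 0.00202). In all 3 genes every sample of day 3 exceeded every healthy sample. Topbp1, the activator of the checkpoint kinase ATR, changed less (log2 fold change 0.77, standard error 0.19, edgeR adjusted p = 0.0279). Of 15 genes of nucleosome assembly, chromatin and tubulin that accompany division, 8 were called higher and 0 lower, with a median of 1.22. Hells, a chromatin remodeller, was at 8.36, 5.08, 6.90 and 5.39 CPM in the healthy samples and 24.4, 16.7, 54.4 and 52.8 CPM at day 3 (log2 fold change 2.53, standard error 0.37, edgeR adjusted p = 0.00238), and the histone chaperone gene Asf1b at 6.88, 6.38, 9.65 and 3.73 CPM in the healthy samples and 31.2, 17.2, 42.0 and 38.1 CPM at day 3 (log2 fold change 2.27, standard error 0.35, edgeR adjusted p = 0.00305). Lmnb1, a lamin of the nuclear envelope, was called with overlapping samples (log2 fold change 2.17, standard error 0.53, edgeR adjusted p = 0.0273). When single samples were left out, the calls of Brca1, Chek1, Fanca, Hells and Asf1b held. Calls were lost for Topbp1 without healthy replicate 1, 2, 3 or 4 or day 3 replicate 3 or 4 (adjusted p up to 0.192) and Lmnb1 without healthy replicate 1, 2 or 4 or day 3 replicate 3 or 4 (adjusted p up to 0.0885). Called rises numbered 7 without healthy replicate 2, 3 or 4 or day 3 replicate 3 among the repair genes, and 4 without healthy replicate 1 or day 3 replicate 1 and 3 without healthy replicate 2 or 4 or day 3 replicate 3 among the nucleosome genes. Exons of Fanca overlap those of another annotated gene.

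Some collagen genes rose, with a wide spread between the samples of day 3, and a few fell. Of 27 collagen chains tested, 12 were called higher and 3 lower, with a median log2 fold change of 2.70. Among the fibrillar chains, 5 of 7 were higher. Col1a1 (chromosome 11, 94936224 to 94953042), a chain of type I collagen, was at 2.17, 1.90, 4.41 and 1.82 CPM in the healthy samples and 45.7, 48.2, 77.0 and 443 CPM at day 3 (log2 fold change 5.89, standard error 1.16, edgeR adjusted p = 0.00971). Col3a1, the chain of type III collagen, was at 16.1, 11.5, 19.96 and 13.1 CPM in the healthy samples and 198, 147, 197 and 879 CPM at day 3 (log2 fold change 4.55, standard error 0.87, edgeR adjusted p = 0.00817), and Col6a3, a chain of the microfibrillar type VI, at 2.15, 1.02, 1.99 and 1.79 CPM in the healthy samples and 41.0, 32.8, 32.9 and 91.9 CPM at day 3 (log2 fold change 4.84, standard error 0.78, edgeR adjusted p = 0.00382). In these genes each sample of day 3 lay above each healthy sample, and replicate 4 was the highest. Col1a2 had a log2 fold change of 4.88 (edgeR adjusted p = 0.00764) with the same pattern. The type IV chains Col4a1 and Col4a2 of basement membranes, which LSECs themselves express, had smaller fold changes than the fibrillar chains that rose. Col4a2 was at 298, 279.6, 319.9 and 236 CPM in the healthy samples and 495, 554, 728 and 1260.4 CPM at day 3 (log2 fold change 1.42, standard error 0.29, edgeR adjusted p = 0.012), and Col4a1 was at 438, 398, 509 and 367 CPM in the healthy samples and 631, 666, 794 and 1587 CPM at day 3 and missed the threshold (log2 fold change 1.10, standard error 0.32, edgeR adjusted p = 0.0563), although neither gene's groups overlapped. The falls were Col4a3 (log2 fold change -2.83, standard error 0.49, edgeR adjusted p = 0.00567), Col4a4 (log2 fold change -1.56, standard error 0.39, edgeR adjusted p = 0.0275) and the transmembrane collagen Col13a1 (log2 fold change -0.94, standard error 0.25, edgeR adjusted p = 0.0374). Leaving out each sample in turn, Col1a1, Col1a2, Col3a1, Col6a3 and Col4a3 remained called. This was not so for Col4a2 without healthy replicate 4 (adjusted p = 0.0565), Col4a4 without healthy replicate 1 or 4 or day 3 replicate 1 or 2 (adjusted p up to 0.083) and Col13a1 without healthy replicate 1, 2, 3 or 4 or day 3 replicate 1, 2 or 3 (adjusted p up to 0.104). Called falls numbered 1 without healthy replicate 1 or 4 or day 3 replicate 1 or 2. Exons of Col3a1, Col4a2, Col4a1 and Col4a3 overlap those of another annotated gene.

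Among the enzymes that process and crosslink collagen, 6 of 22 were called higher and 0 lower (median log2 fold change 0.90). Lox, the lysyl oxidase, was at 0.319, 0.376, 0.0936 and 0.343 CPM in the healthy samples and 8.14, 4.56, 8.31 and 17.1 CPM at day 3 (log2 fold change 5.07, standard error 0.79, edgeR adjusted p = 0.00317), and Adamts2, which removes the amino-terminal propeptide, at 2.13, 2.56, 2.71 and 2.25 CPM in the healthy samples and 21.8, 15.9, 17.3 and 57.2 CPM at day 3 (log2 fold change 3.54, standard error 0.73, edgeR adjusted p = 0.0121). Loxl2 rose less (log2 fold change 1.32, standard error 0.31, edgeR adjusted p = 0.0225). Of 14 laminins and other basement membrane glycoproteins 3 were called higher and 0 lower (median 0.60). These were the laminin chains Lama1, Lama2 and Lamb1, with log2 fold changes of 4.31, 3.81 and 2.95 (edgeR adjusted p = 0.0089, 0.0123 and 0.0184). Nid1, nidogen, was not called (log2 fold change 0.36, standard error 0.26, edgeR adjusted p = 0.47). Called rises among the processing enzymes numbered 3 without healthy replicate 1 or 2, and called falls among the laminins and glycoproteins 1 without day 3 replicate 4. Under removal of any 1 sample, the calls of Lox, Adamts2, Lama1 and Lama2 held. Those lost were Loxl2 without healthy replicate 1, 2 or 4 or day 3 replicate 3 or 4 (adjusted p up to 0.0761) and Lamb1 without healthy replicate 1 or 2 (adjusted p up to 0.0617). Exons of Lox, Loxl2, Lama2 and Nid1 overlap those of another annotated gene.

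Matricellular and elastic fibre genes had 11 of 25 called higher and 0 lower, with a median log2 fold change of 1.90. Ccn2, which encodes connective tissue growth factor, was at 85.8, 36.7, 37.2 and 57.0 CPM in the healthy samples and 146, 239, 322 and 356 CPM at day 3 (log2 fold change 2.29, standard error 0.38, edgeR adjusted p = 0.00471). Sparc, a collagen-binding glycoprotein, was at 2935, 2439.5, 2642 and 2688 CPM in the healthy samples and 4780.1, 4502, 4763 and 3907 CPM at day 3 (log2 fold change 0.75, standard error 0.16, edgeR adjusted p = 0.0161). In both genes the groups did not overlap. Vcan, the proteoglycan versican, was at 0.110, 0.164, 0.166 and 0.172 CPM in the healthy samples and 12.02, 19.6, 2.69 and 3.14 CPM at day 3 (log2 fold change 5.92, standard error 0.81, edgeR adjusted p = 0.00192), and replicates 1 and 2 were its highest samples. Tnc, tenascin C, was at 0, 0.223, 0.0832 and 0.0916 CPM in the healthy samples and 1.83, 3.27, 1.85 and 14.2 CPM at day 3 (log2 fold change 5.73, standard error 1.17, edgeR adjusted p = 0.0117), and Ltbp2, of elastic microfibrils, at 0.220, 0.0587, 0.250 and 0.240 CPM in the healthy samples and 3.35, 3.39, 4.70 and 16.2 CPM at day 3 (log2 fold change 5.15, standard error 1.01, edgeR adjusted p = 0.00919), both highest in replicate 4. Osteopontin, Spp1, was called with a log2 fold change of 2.37 (edgeR adjusted p = 0.0327). Of 8 small leucine-rich proteoglycans 2 were called higher and 0 lower (median 0.90), namely Lum at 18.1, 11.7, 16.1 and 20.9 CPM in the healthy samples and 282, 204, 78.1 and 161 CPM at day 3 (log2 fold change 3.44, standard error 0.60, edgeR adjusted p = 0.00603) and Dcn (log2 fold change 2.07, standard error 0.58, edgeR adjusted p = 0.0482), both of which bind collagen fibrils. Across the leave-one-out fits, Ccn2, Vcan, Tnc, Ltbp2 and Lum remained called. Less stable were Sparc without healthy replicate 2 or 4 or day 3 replicate 1 or 3 (adjusted p up to 0.0778), Spp1 without healthy replicate 1, 2, 3 or 4 or day 3 replicate 1 or 2 (adjusted p up to 0.0931) and Dcn without healthy replicate 1, 2, 3 or 4 or day 3 replicate 1 or 2 (adjusted p up to 0.128). Called rises among the proteoglycans numbered 1 without healthy replicate 1, 2, 3 or 4 or day 3 replicate 1 or 2. Exons of Ccn2, Tnc, Ltbp2 and Spp1 overlap those of another annotated gene.

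Of 21 matrix proteases and protease inhibitors tested, 7 were called higher and 0 lower (median log2 fold change 1.34), namely 5 of 15 proteases and 2 of 6 inhibitors. Timp1, an inhibitor of metalloproteinases, was at 2.93, 2.17, 1.47 and 1.41 CPM in the healthy samples and 56.3, 52.5, 25.2 and 17.1 CPM at day 3 (log2 fold change 4.24, standard error 0.64, edgeR adjusted p = 0.00271). All samples of day 3 were above all healthy samples. Mmp8, the neutrophil collagenase, was at 0.838, 1.53, 1.64 and 0.561 CPM in the healthy samples and 33.6, 42.8, 3.24 and 1.05 CPM at day 3 (log2 fold change 4.14, standard error 0.97, edgeR adjusted p = 0.0223), with the high values in replicates 1 and 2, the samples with the highest monocyte and neutrophil sums, and replicate 4 inside the healthy range. Adamts1, a secreted protease, was not called (log2 fold change -0.23, standard error 0.30, edgeR adjusted p = 0.702). With 1 sample left out at a time, the call of Timp1 held. The call of Mmp8 without healthy replicate 1, 2, 3 or 4 or day 3 replicate 1 or 2 (adjusted p up to 0.0716) did not hold. Called rises numbered 4 without healthy replicate 4, and called falls 1 without day 3 replicate 3 or 4.

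Markers of hepatic stellate cells were higher as well. Of 19 tested, 12 were called higher and 0 lower, with a median log2 fold change of 2.61. Lrat, which esterifies retinol and defines this cell type, was at 3.46, 1.53, 2.83 and 9.28 CPM in the healthy samples and 58.8, 61.9, 24.7 and 36.8 CPM at day 3 (log2 fold change 3.41, standard error 0.73, edgeR adjusted p = 0.0147). Acta2, smooth muscle actin of activated stellate cells, was at 5.28, 6.65, 9.64 and 5.96 CPM in the healthy samples and 86.0, 94.2, 45.7 and 62.2 CPM at day 3 (log2 fold change 3.39, standard error 0.58, edgeR adjusted p = 0.00528), and Tagln, another contractile gene, at 1.34, 1.81, 2.09 and 2.20 CPM in the healthy samples and 42.0, 44.3, 11.7 and 15.4 CPM at day 3 (log2 fold change 3.93, standard error 0.76, edgeR adjusted p = 0.00909). Every sample of day 3 was above every healthy sample in these genes. The order of the samples differed from that of type I collagen: Acta2, Lrat and Tagln were highest in replicates 1 and 2, Col1a1 in replicate 4. Whether the stellate markers account for any of the matrix rises was not tested. The number of stellate markers called higher was 5 without healthy replicate 1, 6 without healthy replicate 2 and 7 without healthy replicate 3. It was 9 without day 3 replicates 1 and 2 and 12 without replicates 3 and 4. When single samples were left out, Acta2 and Tagln remained called. Calls were lost for Lrat without healthy replicate 1 (adjusted p = 0.0509). Exons of Tagln overlap those of another annotated gene.

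**Figure D3:**
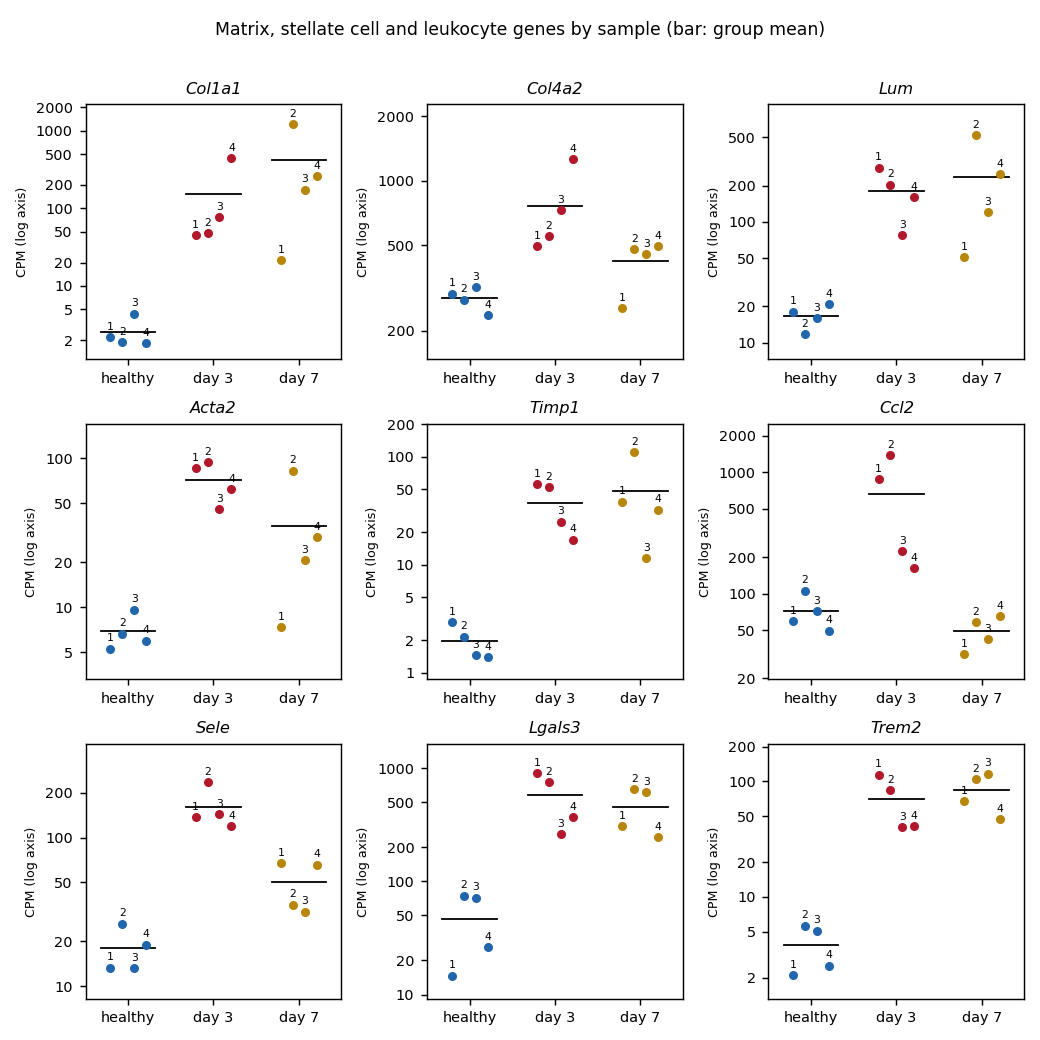
CPM on a log axis of 9 genes of matrix, stellate cells, chemokines and macrophages in the 4 healthy, 4 day 3 and 4 day 7 samples, with the replicate number at each point and a bar at the group mean. No healthy sample reached a day 3 sample in any of the 9 genes, and Col1a1 was highest in day 3 replicate 4 while Ccl2 and Trem2 were highest in replicates 1 and 2.

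Some of the genes that define LSECs fell. The sum of the 5 pan endothelial markers was lower too, as given with the samples, although Tek was the only 1 of them called lower. Whether the falls were particular to LSEC genes was not tested. Of 43 tested identity genes, 3 were called higher and 10 lower (background 4.62% and 2.58%), and the median log2 fold change was -0.56. The falls comprised 2 of 11 scavenger and mannose receptors, 1 of 6 lectins and hyaluronan receptors, 6 of 15 other receptors and secreted proteins and 1 of 11 transcription factors. Mrc1 (chromosome 2, 14229392 to 14332057), the mannose receptor, was at 1569, 1474, 1589 and 1553 CPM in the healthy samples and 475, 458, 694 and 756 CPM at day 3 (log2 fold change -1.38, standard error 0.21, edgeR adjusted p = 0.00282). F8, coagulation factor VIII, was at 1355, 1320.2, 1349 and 1332 CPM in the healthy samples and 453, 458, 570.3 and 541 CPM at day 3 (log2 fold change -1.41, standard error 0.20, edgeR adjusted p = 0.00229), and Plpp3, a lipid phosphatase, at 3319.9, 3735, 3724 and 3183 CPM in the healthy samples and 925, 807, 1860.4 and 1782 CPM at day 3 (log2 fold change -1.38, standard error 0.27, edgeR adjusted p = 0.00868). Clec14a, an endothelial lectin, was at 941, 884, 980.4 and 876 CPM in the healthy samples and 374, 262, 469.8 and 420.3 CPM at day 3 (log2 fold change -1.27, standard error 0.24, edgeR adjusted p = 0.00819). The study lists Clec14a in its set for damaged and not for healthy LSECs. The groups were apart in Mrc1, F8, Plpp3 and Clec14a. Fcgr2b, the receptor recognised by the sorting antibody, was at 3397, 2606, 2912 and 2443 CPM in the healthy samples and 1579.6, 1392, 1779.5 and 1561 CPM at day 3 (log2 fold change -0.85, standard error 0.20, edgeR adjusted p = 0.024) and fell although the cells were gated on it. Lyve1, the hyaluronan receptor, rose and was at 363, 381, 534 and 271 CPM in the healthy samples and 779, 925, 1057 and 935 CPM at day 3 (log2 fold change 1.25, standard error 0.22, edgeR adjusted p = 0.00644). Lrp1, an endocytic receptor, and Colec12, a collectin, were the other rises (log2 fold changes of 2.72 and 1.35, edgeR adjusted p = 0.011 and 0.0145). Exons of Fcgr2b overlap those of another annotated gene.

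Several standard LSEC markers did not pass the test. Stab2, the hyaluronan scavenger receptor, was at 1954, 1860.4, 1865 and 1577 CPM in the healthy samples and 947, 1168, 1701 and 2363 CPM at day 3 (log2 fold change -0.23, standard error 0.26, edgeR adjusted p = 0.648), and Stab1 had log2 fold change 0.11, standard error 0.27, edgeR adjusted p = 0.856. Clec4g, an LSEC lectin, was at 6517, 4875, 5369.6 and 4639 CPM in the healthy samples and 3337, 3637, 2568 and 2026 CPM at day 3 (log2 fold change -0.89, standard error 0.26, edgeR adjusted p = 0.0547). Kdr, the VEGF receptor 2, was at 2088, 2231, 2436 and 2107 CPM in the healthy samples and 821, 848, 1493 and 2031 CPM at day 3 (log2 fold change -0.77, standard error 0.26, edgeR adjusted p = 0.0958). In Clec4g and Kdr each sample of day 3 lay below each healthy sample although neither was called, and in Stab1 and Stab2 the groups overlapped. Over 18 alternative settings, Clec4g was called lower in 10, Kdr in 4, Stab2 in 2 and Stab1 in 0. Clec4g was called lower without healthy replicate 4 (edgeR adjusted p = 0.0401) and without day 3 replicate 1, 3 or 4 (edgeR adjusted p up to 0.0499). Kdr and Stab2 were lowest in day 3 replicates 1 and 2, the samples with the highest monocyte and neutrophil sums. Clec4g had the opposite order and was lowest in replicates 3 and 4. A link of these orders to the sums was not tested. Leaving out each sample in turn, the calls of Mrc1, F8, Plpp3, Clec14a, Lyve1 and Lrp1 held. This was not so for Fcgr2b without healthy replicate 1, 2 or 3 or day 3 replicate 2 (adjusted p up to 0.0767) and Colec12 without day 3 replicate 1 (adjusted p = 0.0546). The number of identity genes called lower was 4 without healthy replicate 1 or 3, 6 without healthy replicate 2, 5 without day 3 replicate 2 and 18 without day 3 replicate 4. It was 6 without day 3 replicates 1 and 2 and 21 without replicates 3 and 4. Exons of Stab2, Stab1 and Clec4g overlap those of another annotated gene.

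Of 27 tested genes associated with capillarization, 6 were called higher and 3 lower (median log2 fold change 0.48). Apln, the ligand of the apelin receptor and a gene of sprouting tip cells, was at 1.02, 0.905, 0.749 and 0.630 CPM in the healthy samples and 3.66, 2.60, 11.3 and 12.5 CPM at day 3 (log2 fold change 3.19, standard error 0.49, edgeR adjusted p = 0.00311). Vwf, von Willebrand factor of large vessels, was at 5.22, 7.37, 12.3 and 8.29 CPM in the healthy samples and 37.2, 109, 11.4 and 13.1 CPM at day 3 (log2 fold change 2.36, standard error 0.64, edgeR adjusted p = 0.0413), with day 3 replicate 3 inside the healthy range and replicate 4 just above it. Cd34 (log2 fold change 1.05, standard error 0.30, edgeR adjusted p = 0.0484) and Sparcl1 (log2 fold change 2.12, standard error 0.56, edgeR adjusted p = 0.0355) were called higher. Selp, P-selectin, had log2 fold change 2.39, standard error 0.53, edgeR adjusted p = 0.0167, with replicate 4 in the healthy range. The fatty acid binding proteins Fabp4 and Fabp5 were not called (log2 fold change 0.47, standard error 0.36, edgeR adjusted p = 0.494 and log2 fold change 0.60, standard error 0.34, edgeR adjusted p = 0.328), and Vwa1 was at 0.359, 0.446, 0.520 and 0.778 CPM in the healthy samples and 1.83, 2.09, 0.775 and 0 CPM at day 3 (log2 fold change 1.15, standard error 0.93, edgeR adjusted p = 0.516). Cldn5, claudin 5 of tight junctions, fell and was at 614, 664, 669 and 458 CPM in the healthy samples and 211, 151, 352 and 339 CPM at day 3 (log2 fold change -1.19, standard error 0.27, edgeR adjusted p = 0.0175). Plpp1 was also lower (log2 fold change -1.08, standard error 0.26, edgeR adjusted p = 0.0265). Under removal of any 1 sample, Apln remained called. Those lost were Vwf without healthy replicate 1, 2, 3 or 4 or day 3 replicate 1 or 2 (adjusted p up to 0.136), Cd34 without healthy replicate 1, 2, 3 or 4 or day 3 replicate 1, 3 or 4 (adjusted p up to 0.188), Sparcl1 without healthy replicate 1, 2, 3 or 4 or day 3 replicate 1 or 2 (adjusted p up to 0.0984), Selp without healthy replicate 1 or 3 (adjusted p up to 0.0573), Cldn5 without healthy replicate 2 (adjusted p = 0.0518) and Plpp1 without healthy replicate 1 or 3 (adjusted p up to 0.0779). Called rises in the list numbered 1 without healthy replicate 1 or 3, 2 without healthy replicate 2 or 4 or day 3 replicate 1 and 3 without day 3 replicate 2, and called falls 6 without day 3 replicate 4. The median was -0.25 without day 3 replicates 1 and 2. Exons of Cd34, Selp, Vwa1 and Plpp1 overlap those of another annotated gene.

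The study's sets for healthy and for damaged LSECs came from human single-cell data and were then examined on these same samples. From the healthy set the study chose a smaller signature with these samples in view, so that counts over that signature would not be independent evidence of a direction. The counts below are over the full sets. Of 49 tested genes of the healthy set 6 were called higher and 6 lower (median log2 fold change -0.21), and of 15 tested genes of the damaged set 3 were called higher and 2 lower (median 0.53). The rises in the healthy set included Ccl9 and Ccl6, monocyte-attracting chemokines at 14.1, 15.9, 14.4 and 20.6 CPM in the healthy samples and 553, 462, 78.6 and 33.6 CPM at day 3 and at 39.7, 93.2, 86.4 and 70.9 CPM in the healthy samples and 1084, 815, 172 and 67.5 CPM at day 3 in turn (4.12 and 2.88 on the log2 scale, edgeR adjusted p = 0.00707 and 0.0237). Both were highest in replicates 1 and 2, and replicate 4 was within the healthy range of Ccl6. The rises in the damaged set were Vwf, Sparcl1 and Cd34, and the falls Plpp1 and Clec14a. Called falls in the healthy set numbered 2 without healthy replicate 1 or 3, 3 without healthy replicate 2 or day 3 replicate 2 and 10 without day 3 replicate 4, and called rises in the damaged set 0 without healthy replicate 1, 2, 3 or 4 or day 3 replicate 1 and 1 without day 3 replicate 2. Called falls in the damaged set numbered 1 without healthy replicate 1 or 3, and its median was -0.29 without day 3 replicates 1 and 2. Across the leave-one-out fits, the call of Ccl9 held. Less stable was Ccl6 without healthy replicate 1, 2, 3 or 4 or day 3 replicate 1 or 2 (adjusted p up to 0.075).

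**Figure D4:**
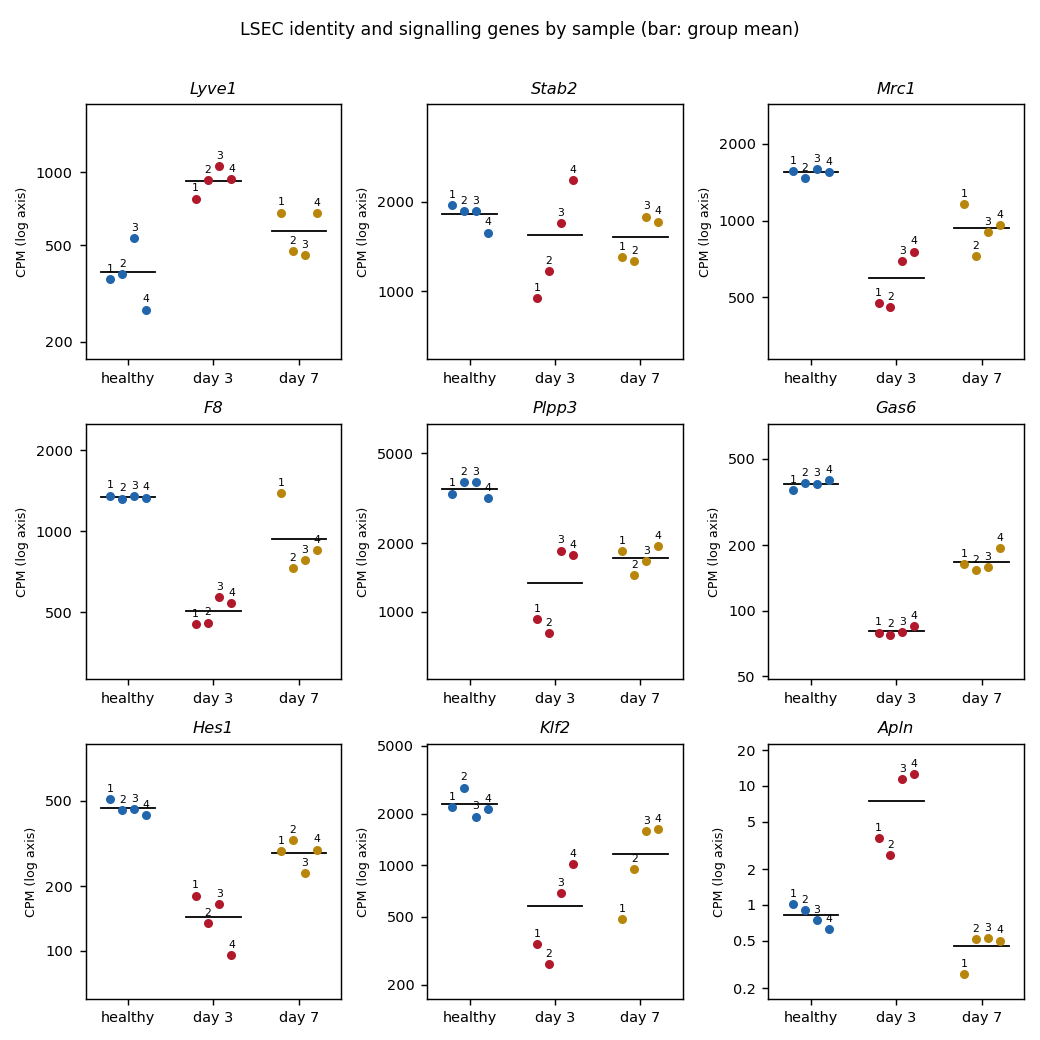
CPM on a log axis of 9 genes of LSEC identity and signalling in the 4 healthy, 4 day 3 and 4 day 7 samples, with the replicate number at each point and a bar at the group mean. Mrc1, F8, Plpp3, Gas6, Hes1 and Klf2 at day 3 lay below all healthy samples, Lyve1 lay above them and Stab2 overlapped.

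Of 35 angiogenic genes tested, 7 were called higher and 5 lower (median log2 fold change 0.33). Tip cell genes had 4 of 8 called higher and 0 lower. Esm1, a tip cell proteoglycan, was at 23.6, 26.1, 44.0 and 10.8 CPM in the healthy samples and 78.1, 85.6, 91.4 and 63.9 CPM at day 3 (log2 fold change 1.61, standard error 0.36, edgeR adjusted p = 0.0182). Of the 9 VEGF ligands and receptors, Vegfc rose (log2 fold change 1.14, standard error 0.27, edgeR adjusted p = 0.0232) and Nrp1, a VEGF co-receptor, fell (log2 fold change -1.06, standard error 0.30, edgeR adjusted p = 0.0466). In the angiopoietin pathway, Angpt2, the ligand that loosens vessels, rose (log2 fold change 0.81, standard error 0.22, edgeR adjusted p = 0.0397), while its receptor Tek was at 458, 488, 505 and 499 CPM in the healthy samples and 157, 186, 206 and 276 CPM at day 3 (log2 fold change -1.24, standard error 0.20, edgeR adjusted p = 0.00425). Among 13 Notch genes 1 was called higher, Notch2 (log2 fold change 1.65, standard error 0.38, edgeR adjusted p = 0.02), and 3 lower. The Notch target Hes1 was at 512, 452, 457 and 429.7 CPM in the healthy samples and 181, 134, 166 and 95.6 CPM at day 3 (log2 fold change -1.68, standard error 0.21, edgeR adjusted p = 0.00134), and Hey1 at 5.89, 10.7, 10.2 and 5.54 CPM in the healthy samples and 3.18, 2.38, 3.25 and 2.80 CPM at day 3 (log2 fold change -1.47, standard error 0.27, edgeR adjusted p = 0.00734), both with all samples of day 3 below the healthy samples. With 1 sample left out at a time, Tek, Hes1 and Hey1 remained called. The calls of Esm1 without healthy replicate 1 or 2 or day 3 replicate 3 (adjusted p up to 0.0592), Vegfc without healthy replicate 1, 2 or 4 (adjusted p up to 0.0983), Nrp1 without healthy replicate 1, 2, 3 or 4 or day 3 replicate 1 or 2 (adjusted p up to 0.109), Angpt2 without healthy replicate 2, 3 or 4 or day 3 replicate 1, 2, 3 or 4 (adjusted p up to 0.172) and Notch2 without healthy replicate 1 or 4 or day 3 replicate 2 (adjusted p up to 0.0673) did not hold. Called rises in the whole list numbered 3 without healthy replicate 1 or 4 and 2 without healthy replicate 2, and called falls 3 without healthy replicate 1, 2, 3 or 4 or day 3 replicate 1 or 2 and 9 without day 3 replicate 4. Exons of Nrp1 and Notch2 overlap those of another annotated gene.

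Among 14 shear-responsive and vasoactive genes 3 were called higher and 3 lower (median log2 fold change 0.37). Klf2, a transcription factor that laminar flow maintains, was at 2196, 2847, 1929 and 2123 CPM in the healthy samples and 348, 266, 687 and 1017 CPM at day 3 (log2 fold change -1.97, standard error 0.43, edgeR adjusted p = 0.0164), and its relative Klf4 at 478, 414, 414 and 267 CPM in the healthy samples and 162, 142, 119 and 154 CPM at day 3 (log2 fold change -1.45, standard error 0.32, edgeR adjusted p = 0.0157). Ptgs1, a cyclooxygenase, had log2 fold change -0.92, standard error 0.18, edgeR adjusted p = 0.0105. Edn1, the vasoconstrictor endothelin, was at 8.24, 5.60, 8.54 and 7.13 CPM in the healthy samples and 77.0, 89.5, 24.7 and 13.7 CPM at day 3 (log2 fold change 2.79, standard error 0.49, edgeR adjusted p = 0.00603), and its receptor Ednrb at 6.62, 10.3, 6.76 and 8.36 CPM in the healthy samples and 63.9, 83.6, 24.04 and 14.6 CPM at day 3 (log2 fold change 2.54, standard error 0.56, edgeR adjusted p = 0.016). Both were highest in replicates 1 and 2, and in none of the 5 genes did the groups overlap. When single samples were left out, the calls of Klf2, Klf4, Ptgs1 and Edn1 held. Calls were lost for Ednrb without healthy replicate 1 or 3 (adjusted p up to 0.0544). Exons of Ptgs1 and Edn1 overlap those of another annotated gene.

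Of 12 genes of pericentral angiocrine signalling 0 were called higher and 1 lower (median log2 fold change -0.21). The fall was that of Dkk3, a secreted protein of the Dickkopf family, at 123, 100.05, 107 and 119.6 CPM in the healthy samples and 37.9, 43.2, 19.4 and 22.5 CPM at day 3 (log2 fold change -1.87, standard error 0.28, edgeR adjusted p = 0.00273). Wnt2, a sinusoidal Wnt ligand, was at 295, 162, 237 and 252 CPM in the healthy samples and 215, 259, 64.4 and 37.1 CPM at day 3 (log2 fold change -0.72, standard error 0.48, edgeR adjusted p = 0.425), with replicates 1 and 2 in the healthy range and replicates 3 and 4 below it. Other angiocrine growth factors had 6 of 19 called higher and 3 lower (median 0.56). Hgf, hepatocyte growth factor, was at 27.4, 26.0, 26.3 and 33.9 CPM in the healthy samples and 109, 160.2, 88.9 and 92.4 CPM at day 3 (log2 fold change 1.99, standard error 0.33, edgeR adjusted p = 0.00433), and Ereg, an EGF receptor ligand, at 0.2096, 0.352, 0.198 and 0.137 CPM in the healthy samples and 8.61, 11.4, 5.56 and 11.4 CPM at day 3 (log2 fold change 5.36, standard error 0.65, edgeR adjusted p = 0.00122). Both were raised in all samples of day 3. Igfbp3 had log2 fold change 2.78, standard error 0.61, edgeR adjusted p = 0.016. Ntf3, neurotrophin 3, was at 51.1, 39.8, 47.7 and 61.7 CPM in the healthy samples and 15.01, 12.8, 5.13 and 4.03 CPM at day 3 (log2 fold change -2.44, standard error 0.40, edgeR adjusted p = 0.00418), and Pdgfd had log2 fold change -1.50, standard error 0.28, edgeR adjusted p = 0.00746. In the TGF-beta and activin family 3 of 21 were called higher and 1 lower (median 0.12). Inhbb, the subunit of activin B, was at 31.9, 35.4, 32.6 and 33.3 CPM in the healthy samples and 108, 198, 87.4 and 90.2 CPM at day 3 (log2 fold change 1.86, standard error 0.34, edgeR adjusted p = 0.00701). Fstl1, a follistatin-like protein, and Gdf2, which encodes BMP9 and is expressed in stellate cells, rose by 3.47 and 2.79 on the log2 scale (edgeR adjusted p = 0.00317 and 0.0157). Smad7, an inhibitor of the pathway, had log2 fold change -0.63, standard error 0.15, edgeR adjusted p = 0.0259. Among the pericentral genes, called falls numbered 2 without day 3 replicate 2 and 3 without day 3 replicate 4, and called rises 1 without day 3 replicate 3 and 2 without day 3 replicate 4. Called rises among the growth factors numbered 3 without healthy replicate 1 or 2, and called falls in the TGF-beta and activin family 0 without healthy replicate 1, 2 or 3 or day 3 replicate 2 and 4 without day 3 replicate 4. Leaving out each sample in turn, Dkk3, Hgf, Ereg, Ntf3, Pdgfd, Inhbb and Fstl1 remained called. This was not so for Igfbp3 without healthy replicate 1 or 2 (adjusted p up to 0.0535), Gdf2 without healthy replicate 1 or 2 (adjusted p up to 0.0535) and Smad7 without healthy replicate 1, 2 or 3 or day 3 replicate 2 (adjusted p up to 0.0849). Exons of Hgf and Ereg overlap those of another annotated gene.

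Some genes that recruit leukocytes rose. Of 28 adhesion molecules and chemokines 13 were called higher and 1 lower, with a median log2 fold change of 1.39. Sele, E-selectin of activated endothelium, was at 13.3, 26.4, 13.1 and 19.1 CPM in the healthy samples and 138, 237, 145 and 119 CPM at day 3 (log2 fold change 3.15, standard error 0.36, edgeR adjusted p = 0.00081), and Icam1, a ligand of leukocyte integrins, at 465, 432, 292 and 362 CPM in the healthy samples and 609, 909.7, 1073 and 924 CPM at day 3 (log2 fold change 1.18, standard error 0.27, edgeR adjusted p = 0.0191). Each sample of day 3 lay above each healthy sample in both. Ccl2, the main attractant of monocytes, was at 59.8, 106, 71.5 and 49.6 CPM in the healthy samples and 882, 1388, 224 and 163 CPM at day 3 (log2 fold change 3.21, standard error 0.59, edgeR adjusted p = 0.00714), and Cxcl1, an attractant of neutrophils, at 344, 306, 211 and 299.8 CPM in the healthy samples and 1762, 1842, 784 and 539 CPM at day 3 (log2 fold change 2.09, standard error 0.36, edgeR adjusted p = 0.00546). Ccl2 and Cxcl1 were highest in replicates 1 and 2, and each sample of day 3 was above each healthy sample. Cxcl14 had log2 fold change 3.46, standard error 0.55, edgeR adjusted p = 0.00353. Cxcl16, another chemokine, was lower (log2 fold change -0.62, standard error 0.17, edgeR adjusted p = 0.0434). Called rises numbered 8 without healthy replicate 1, 6 without healthy replicate 3 and 7 without healthy replicate 4, and called falls 0 without healthy replicate 1, 2 or 3 or day 3 replicate 2 and 2 without day 3 replicate 4. Under removal of any 1 sample, the calls of Sele, Ccl2, Cxcl1 and Cxcl14 held. Those lost were Icam1 without healthy replicate 3 or 4 or day 3 replicate 3 (adjusted p up to 0.0737) and Cxcl16 without healthy replicate 1, 2 or 3 or day 3 replicate 2 (adjusted p up to 0.111). Exons of Icam1 and Cxcl16 overlap those of another annotated gene.

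Markers of leukocytes were raised in part. Of 11 monocyte and neutrophil markers 4 were called higher and 0 lower (median log2 fold change 2.78). Chil3, a lectin of monocytes and macrophages that shares sequence with Chil4, was at 0.589, 0.681, 0.884 and 0 CPM in the healthy samples and 296, 288, 10.1 and 7.39 CPM at day 3 (log2 fold change 8.12, standard error 1.57, edgeR adjusted p = 0.00881). Ccr2, the receptor of Ccl2, was at 9.06, 17.0, 20.9 and 5.06 CPM in the healthy samples and 217, 78.2, 25.6 and 35.4 CPM at day 3 (log2 fold change 2.77, standard error 0.71, edgeR adjusted p = 0.0319). Lyz2, lysozyme, was at 427, 1199.8, 933 and 481 CPM in the healthy samples and 8376, 5488, 1347 and 1266 CPM at day 3 (log2 fold change 2.44, standard error 0.59, edgeR adjusted p = 0.0247), and Ly6c2, the monocyte antigen whose reads may be shared with Ly6c1, had log2 fold change 3.64, standard error 1.00, edgeR adjusted p = 0.0439. Replicates 1 and 2 were highest in all 4 genes, and in Ly6c2 replicates 3 and 4 lay within the healthy range. The number called higher was 1 without healthy replicate 1, 3 or 4 or day 3 replicate 1 or 2, 2 without healthy replicate 2 and 8 without day 3 replicate 4, 1 without day 3 replicates 1 and 2, and 10 without replicates 3 and 4. Of 20 genes of macrophages in injured liver 11 were called higher and 1 lower (median 2.24). Gpnmb, a glycoprotein of lipid-laden macrophages, was at 0.0299, 1.74, 0.874 and 0.824 CPM in the healthy samples and 94.1, 110.3, 132 and 287 CPM at day 3 (log2 fold change 7.50, standard error 0.96, edgeR adjusted p = 0.00139), Trem2 at 2.10, 5.64, 5.10 and 2.54 CPM in the healthy samples and 114, 84.5, 40.04 and 40.8 CPM at day 3 (log2 fold change 4.18, standard error 0.47, edgeR adjusted p = 0.00081) and Lgals3, galectin 3, at 14.7, 74.8, 72.0 and 26.4 CPM in the healthy samples and 912, 759, 264 and 368 CPM at day 3 (log2 fold change 3.62, standard error 0.61, edgeR adjusted p = 0.00476). Gpnmb was highest in replicate 4 and the other 2 genes in replicates 1 and 2, and all samples of day 3 were above all healthy samples in the 3 genes. The fall in the list was Mrc1. Called rises among these macrophage genes numbered 7 without healthy replicate 1 and 7 without day 3 replicates 1 and 2. Kupffer cell markers had 0 of 11 called in either direction (median -0.30), and Clec4f, their lectin, was at 58.9, 492, 554 and 461 CPM in the healthy samples and 203, 227, 66.5 and 71.7 CPM at day 3 (log2 fold change -1.46, standard error 0.61, edgeR adjusted p = 0.173). Lymphocyte markers had 0 of 12 called (median -0.01). Hepatocyte markers had 0 of 16 called (median -0.73), and this rested on healthy replicate 4, the sample with the high sum: without it 4 were called higher, with a median log2 fold change of 2.57. Across the leave-one-out fits, Chil3, Gpnmb, Trem2 and Lgals3 remained called. Less stable were Ccr2 without healthy replicate 1, 2, 3 or 4 or day 3 replicate 1 or 2 (adjusted p up to 0.108), Lyz2 without healthy replicate 1, 3 or 4 or day 3 replicate 1 or 2 (adjusted p up to 0.0767) and Ly6c2 without healthy replicate 1, 2, 3 or 4 or day 3 replicate 1 or 2 (adjusted p up to 0.158).

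Of 16 genes of glycolysis 7 were called higher and 0 lower (median log2 fold change 0.68). Hk2, hexokinase 2, was at 12.9, 13.8, 12.01 and 10.04 CPM in the healthy samples and 41.3, 25.8, 33.8 and 27.2 CPM at day 3 (log2 fold change 1.39, standard error 0.26, edgeR adjusted p = 0.00773), and Pgk1, phosphoglycerate kinase, at 96.7, 91.4, 99.4 and 105 CPM in the healthy samples and 187, 171, 175 and 154 CPM at day 3 (log2 fold change 0.81, standard error 0.16, edgeR adjusted p = 0.0101). Slc2a1, the glucose transporter GLUT1, was at 10.3, 12.9, 12.6 and 7.58 CPM in the healthy samples and 24.1, 24.4, 23.1 and 29.2 CPM at day 3 (log2 fold change 1.22, standard error 0.27, edgeR adjusted p = 0.0167). The groups were apart in the 3 genes. Ldha, lactate dehydrogenase, missed the threshold (log2 fold change 0.58, standard error 0.17, edgeR adjusted p = 0.0561). Called rises numbered 4 without healthy replicate 1 or day 3 replicate 1, 3 without healthy replicate 2 or day 3 replicate 3 and 2 without healthy replicate 4. Cholesterol synthesis had 0 of 18 genes called (median -0.25), heat shock and unfolded protein genes 0 of 18 higher and 1 lower (median -0.44), and interferon-stimulated genes 0 of 18 higher and 2 lower (median -0.33). Gbp4, a guanylate-binding protein, was at 193, 192, 196 and 149.9 CPM in the healthy samples and 60.3, 63.3, 89.0 and 77.1 CPM at day 3 (log2 fold change -1.33, standard error 0.24, edgeR adjusted p = 0.00686). Of 13 Nrf2 targets and metallothioneins 2 were called higher (median 0.00), among them Txnrd1, thioredoxin reductase, at 49.99, 55.2, 57.5 and 58.0 CPM in the healthy samples and 77.5, 98.6, 97.2 and 111 CPM at day 3 (log2 fold change 0.80, standard error 0.18, edgeR adjusted p = 0.018). Of 15 immediate early genes 1 was called higher and 3 lower (median -0.57). Myc was at 49.97, 61.2, 49.5 and 43.6 CPM in the healthy samples and 88.8, 81.3, 180.3 and 237 CPM at day 3 (log2 fold change 1.52, standard error 0.31, edgeR adjusted p = 0.0122), while Dusp1, a phosphatase of MAP kinases, was at 3502, 4247, 4154 and 4373 CPM in the healthy samples and 1802, 1702, 2041 and 1997 CPM at day 3 (log2 fold change -1.11, standard error 0.18, edgeR adjusted p = 0.00391) and Fos at 7631, 8273, 9056 and 9480.4 CPM in the healthy samples and 4478, 3755, 5099 and 5079.7 CPM at day 3 (log2 fold change -0.90, standard error 0.20, edgeR adjusted p = 0.0164). Called rises among the immediate early genes numbered 0 without healthy replicate 4 and 2 without day 3 replicate 2, and called falls 1 without day 3 replicate 2 and 7 without day 3 replicate 4. Among interferon-stimulated genes, called falls numbered 1 without healthy replicate 1 or 3, and called rises 1 without day 3 replicate 3 and 2 without day 3 replicate 4. Rises among Nrf2 targets numbered 1 without healthy replicate 1, 2 or 4 or day 3 replicate 3, and falls among heat shock genes 0 without healthy replicate 1, 2 or 3 or day 3 replicate 1 or 2. Cholesterol synthesis genes called higher numbered 1 without healthy replicate 4 and those called lower 1 without day 3 replicate 1, and glycolysis genes called lower 1 without day 3 replicate 4. With 1 sample left out at a time, the calls of Hk2, Gbp4 and Dusp1 held. The calls of Pgk1 without healthy replicate 4 or day 3 replicate 3 (adjusted p up to 0.0584), Slc2a1 without healthy replicate 1 or 4 (adjusted p up to 0.0762), Txnrd1 without healthy replicate 1, 2 or 4 or day 3 replicate 3 (adjusted p up to 0.085), Myc without healthy replicate 4 (adjusted p = 0.0579) and Fos without day 3 replicate 2 (adjusted p = 0.0502) did not hold. Exons of Slc2a1, Gbp4 and Dusp1 overlap those of another annotated gene.

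**Figure D5:**
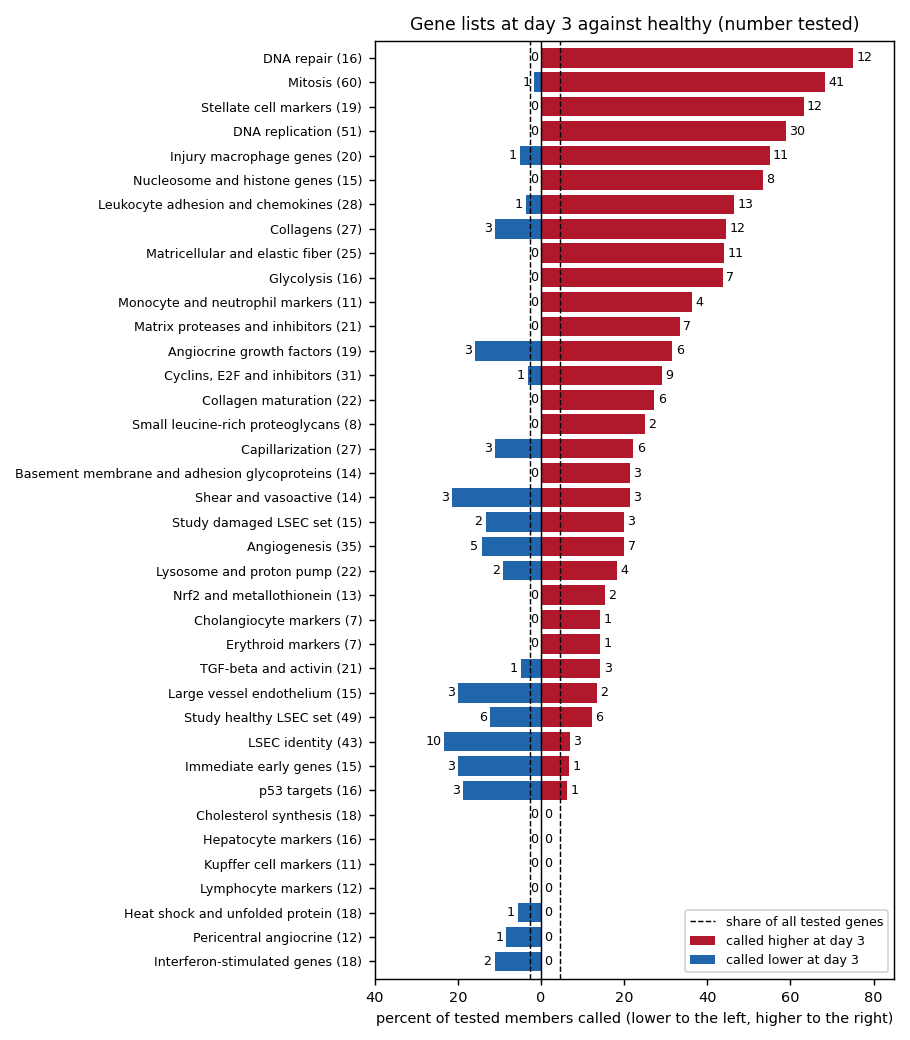
Percent of tested members of each gene list called higher (red, to the right) or lower (blue, to the left) at day 3, with the counts at the bar ends. Dashed lines mark the share of all tested genes called higher (4.62%) and lower (2.58%), and DNA repair, mitosis and stellate cell markers extend furthest to the right.

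Across all genes, the 12 largest rises and 12 largest falls were taken among 1110 called protein-coding genes without overlap between the groups and with at least 10 CPM in the higher group. Besides Chil3, Gpnmb, Col1a1, Col1a2 and Col6a3, the rises were Ctsj, Tubb3, Steap1, Capn6, Clec4e, Fam20c and Robo2. Ctsj, a cathepsin, was at 0, 0.282, 0.177 and 0 CPM in the healthy samples and 26.4, 54.5, 10 and 10.3 CPM at day 3 (log2 fold change 7.78, standard error 1.05, edgeR adjusted p = 0.00185), and Tubb3, a tubulin isotype, at 0.170, 0.117, 0.135 and 0.0801 CPM in the healthy samples and 20.5, 34.6, 4.12 and 5.02 CPM at day 3 (log2 fold change 6.97, standard error 0.73, edgeR adjusted p = 0.000621). Steap1, a member of the Steap family, was at 0.170, 0.106, 0.114 and 0.0687 CPM in the healthy samples and 9.92, 11.2, 10.5 and 9.90 CPM at day 3 (log2 fold change 6.47, standard error 0.52, edgeR adjusted p = 7.24e-05), with the 4 samples of day 3 close together. Clec4e, a lectin of myeloid cells, followed the monocyte markers at 2.26, 4.57, 2.32 and 1.37 CPM in the healthy samples and 128, 104, 16.1 and 16.5 CPM at day 3. Fam20c, the kinase of secreted proteins, rose by 4.61, Capn6 by 5.20 and Robo2 by 4.61 on the log2 scale (edgeR adjusted p = 0.000774, 0.00167 and 0.00268). Capn6 and Robo2 were highest in replicate 4, as were the collagens. Exons of Capn6 overlap those of another annotated gene.

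Among the falls, Gas6 (chromosome 8, 13465374 to 13494490), the ligand of TAM receptors that bridge dying cells to phagocytes, was at 358, 387, 384 and 400.1 CPM in the healthy samples and 79.4, 77.8, 79.9 and 85.3 CPM at day 3 (log2 fold change -2.25, standard error 0.13, edgeR adjusted p = 5.08e-06). Abi3bp, a matrix-associated protein, was at 131, 105, 117 and 116 CPM in the healthy samples and 26.1, 32.4, 25.6 and 28.0 CPM at day 3 (log2 fold change -2.06, standard error 0.17, edgeR adjusted p = 7.24e-05), and H2-T24, a class I-like gene, at 65.4, 82.2, 91.2 and 83.9 CPM in the healthy samples and 25.4, 18.1, 15.2 and 17.4 CPM at day 3 (log2 fold change -2.08, standard error 0.20, edgeR adjusted p = 0.000331). The groups did not overlap in the 3 genes. Gpr155 was at 159, 108, 118 and 143 CPM in the healthy samples and 24.1, 17.0, 27.7 and 36.3 CPM at day 3 (log2 fold change -2.33, standard error 0.25, edgeR adjusted p = 0.000659), and Ackr4, a scavenging chemokine receptor, at 39.9, 71.5, 73.8 and 55.1 CPM in the healthy samples and 12.5, 8.90, 16.4 and 14.98 CPM at day 3 (log2 fold change -2.19, standard error 0.28, edgeR adjusted p = 0.00148). Pcp4l1, Ces2g and Mcc had log2 fold changes of -2.28, -2.08 and -2.06 (edgeR adjusted p = 0.00202, 0.00271 and 0.00141). Ntf3 and Cdkn1c were also among the 12, as was Samd12 (log2 fold change -2.15, standard error 0.57, edgeR adjusted p = 0.0371). Elovl3, an elongase of fatty acids, was at 1.86, 0.881, 2.22 and 74.8 CPM in the healthy samples and 0.145, 0, 0 and 0 CPM at day 3 (log2 fold change -9.03, standard error 2.08, edgeR adjusted p = 0.02), and its healthy level rested on replicate 4, the sample with the high hepatocyte markers. When single samples were left out, Ctsj, Tubb3, Steap1, Clec4e, Fam20c, Capn6, Robo2, Gas6, Abi3bp, H2-T24, Gpr155, Ackr4, Pcp4l1, Ces2g and Mcc remained called. Calls were lost for Samd12 without healthy replicate 1, 2, 3 or 4 or day 3 replicate 1 or 2 (adjusted p up to 0.0754) and Elovl3 without healthy replicate 4 or day 3 replicate 2 (adjusted p up to 0.0589). Exons of Gas6, Gpr155, Ackr4, Mcc and Elovl3 overlap those of another annotated gene.

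To see what set day 3 apart from the later time point, the same model compared it with day 7. Day 3 was higher in 362 genes and lower in 110 of 26626, which is 1.36% and 0.413% of the tested genes (1.77% together), and the median log2 difference was 0.10. Of the 51 replication genes, 27 were higher at day 3 than at day 7 and 0 lower, with a median log2 difference of 1.36. Mcm6 was at a mean of 25.9 ± 2.18 CPM (SD, n = 4) at day 7 (log2 difference 2.11, standard error 0.39, edgeR adjusted p = 0.0196). Pcna, not called against healthy cells, was higher than at day 7, where it was at 136 ± 13.1 CPM (log2 difference 1.15, standard error 0.24, edgeR adjusted p = 0.0311). Mitosis genes separated less, with 3 of 60 higher and 1 lower and a median of 0.77. Mki67 was at 81.8 ± 26.9 CPM at day 7 and was not called between the days (log2 difference 0.71, standard error 0.46, edgeR adjusted p = 0.425), Cdk1 was higher at day 3 (log2 difference 1.46, standard error 0.28, edgeR adjusted p = 0.0206) and Cenpa lower (log2 difference -1.07, standard error 0.19, edgeR adjusted p = 0.0172). Repair genes had 6 of 16 higher (median 1.54). That replication genes differed between the days more often than mitosis genes was not tested.

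No collagen chain was called between day 3 and day 7 in either direction, with a median log2 difference of -0.74 over the 27. Col1a1 was at 417 ± 540.1 CPM at day 7 (log2 difference -1.44, standard error 0.96, edgeR adjusted p = 0.443), with an SD larger than its mean. Of the stellate markers 0 of 19 differed (median -0.50), and of the LSEC identity genes 1 of 43, F8, which was lower at day 3 (log2 difference -0.89, standard error 0.20, edgeR adjusted p = 0.0429). Higher at day 3 than in both the healthy and the day 7 samples were Trp53 (log2 difference 1.15, standard error 0.16, edgeR adjusted p = 0.00714), Inhbb (log2 difference 2.39, standard error 0.34, edgeR adjusted p = 0.00715), Apln (log2 difference 4.06, standard error 0.52, edgeR adjusted p = 0.00714) and Ccl2 (log2 difference 3.75, standard error 0.60, edgeR adjusted p = 0.0108). Apln was at 0.452 ± 0.128 CPM at day 7 and Ccl2 at 49.3 ± 15.2 CPM. Lower at day 3 than in both were Gas6 (log2 difference -1.06, standard error 0.13, edgeR adjusted p = 0.00712), Cdkn1c (log2 difference -1.77, standard error 0.23, edgeR adjusted p = 0.00714), Hes1 (log2 difference -0.99, standard error 0.21, edgeR adjusted p = 0.0326) and Gpr155 (log2 difference -1.70, standard error 0.24, edgeR adjusted p = 0.00714). Their day 7 means were 168 ± 18.5, 35.4 ± 7.22, 286 ± 41.1 and 85.2 ± 16.2 CPM (SD, n = 4), between the levels of day 3 and of the healthy samples. Atp6v0d2, a proton pump subunit that rose against healthy cells from at most 0.129 CPM, was at 62.3 ± 23.5 CPM at day 7, and day 3 was lower (log2 difference -4.78, standard error 0.92, edgeR adjusted p = 0.0223). In all, 170 genes were called higher at day 3 against both groups and 55 lower. Single samples moved this comparison as well. Its 472 calls became 104 without day 3 replicate 1, 289 without replicate 2, 190 without replicate 3 and 1652 without replicate 4, and 127, 143, 26 and 44 without day 7 replicates 1 to 4. Fitted to the 8 samples of day 3 and day 7 alone, it gave 1 call.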

How the data were processed

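RNA of sorted mouse LSECs was sequenced by the authors, who used FastQC and AfterQC for quality control and trimming, STAR for alignment to GRCm38 and StringTie for assembly. Tool versions, the annotation release and use of strand are not given in the sources used here. The deposited table holds raw counts, whole reads per Ensembl gene, in 1 column per sample. Gene names and positions came from an annotation of the same build. Without known strand use, reads of overlapping or antisense genes cannot be told apart, and near-identical genes such as Chil3 and Chil4 or Ly6c1 and Ly6c2 may share reads.

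Counts of the 14 samples were filtered with filterByExpr (minimum count 10, minimum total 15), scaled by TMM and fitted as 4 group means with the quasi-likelihood test of edgeR 4.0.16 in R 4.3.3. Tests were two-sided, with Benjamini-Hochberg adjustment over 26626 genes and a threshold of 0.05. The standard error of a fold change is its size over the root of its F statistic. The floor of detection is 3 counts, and it covers counting error only. Sample totals are given with the results. Other scalings, filters and sample choices were tried as alternatives, as were limma 3.58.1, with voom and a weight per sample, and DESeq2 1.42.0. The script was tested on simulated data.

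Members and lists were chosen with earlier results of these data known. Named genes were anchors, the 3 largest called changes per list and direction with a mean of at least 5 CPM, the member of each list with the highest mean, and the 12 largest rises and falls of all genes. Of the 163 genes this names, 141 are printed. Acta2, Angpt2, Atp6v0d2, Ccne1, Cdk1, Cdk6, Chil4, Col4a3, Col4a4, Cxcl1, Gins1, Hgf, Icam1, Mcm6, Ncapd2, Pgk1, Rpa2, Sele, Vegfc, Selenop, Tnf and Steap2 were chosen after their values were seen. Sequences are RefSeq promoters of GRCm38.p6. Some genes of these lists are not reported here.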

Additional observations from a re-analysis of the deposited data

Results flagged for a closer look

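For 40 of the named genes the change from healthy cells differed between day 3 and day 7, in that the direct edgeR test of day 3 against day 7 had an adjusted p under 0.05. On the log2 scale, day 3 was above day 7 for Angpt2 (0.96), Apln (4.06), Ccl2 (3.75), Ccn2 (1.59), Ccne1 (1.56), Cdc6 (2.47), Cdk1 (1.46), Chek1 (2.13), Ctsj (4.15), Cxcl1 (1.76), Fanca (1.83), Gins1 (2.08), Hells (2.12), Inhbb (2.39), Mcm6 (2.11), Pcna (1.15), Pgk1 (0.89), Rpa2 (1.44), Sele (1.67), Steap1 (2.28), Tnf (1.62), Topbp1 (0.83), Trp53 (1.15), Tubb3 (3.02), Txnrd1 (0.92) and Uhrf1 (2.14). It was below day 7 for Abi3bp (-1.20), Ackr4 (-1.26), Atp6v0d2 (-4.78), Cdkn1c (-1.77), Cenpa (-1.07), F8 (-0.89), Gas6 (-1.06), Gpr155 (-1.70), H2-T24 (-1.41), Hes1 (-0.99), Hey1 (-1.72), Mcc (-1.50), Sesn1 (-0.97) and Smad7 (-0.72).

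In 14 of 326 groups of 4 samples, 1 sample lay further from the others on a log scale of CPM than Dixon's critical value for 4 samples allows. Chance alone flags about 1 in 20 groups. The samples were Chil3 in healthy replicate 4 (0 CPM), Clec4f in healthy replicate 1 (58.9 CPM), Col3a1 in day 3 replicate 4 (879 CPM), Col4a4 in day 3 replicate 4 (2.34 CPM), Cxcl16 in healthy replicate 1 (344 CPM), Elovl3 in day 3 replicate 1 (0.145 CPM), Foxm1 in day 3 replicate 4 (51.6 CPM), Gbp4 in healthy replicate 4 (149.9 CPM), Lox in healthy replicate 3 (0.0936 CPM), Lrp1 in healthy replicate 1 (11.1 CPM), Ltbp2 in healthy replicate 2 (0.0587 CPM), Rpa2 in healthy replicate 4 (21.1 CPM), Samd12 in day 3 replicate 4 (0.902 CPM) and Vcan in healthy replicate 1 (0.110 CPM).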

How the results depend on the processing

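Of 163 named genes, between 122 (without healthy replicate 1 or 4) and 162 (RLE size factors) kept their direction and call under each other setting, but the counts of calls moved. These include named genes that were not called. Of the 145 called named genes, 88 stayed called under every alternative that tested them, and all 145 kept their direction. For day 3 against healthy, DESeq2 called 3627 genes (2320 higher, 1307 lower) and limma 7265 (4226 and 3039). The fit of the 2 groups alone called 1108 (633 higher), no filter on low counts gave 732 higher and 817 lower, and library size scaling 401 lower. Leaving out 1 sample gave 946 to 3314 calls, 631 to 1724 higher and 315 to 1590 lower. For day 3 against day 7, DESeq2 called 1671 genes (1049 and 622), limma 6002 (3866 and 2136), the fit of 2 groups 1 (0 and 1), library size scaling 287 (217 and 70) and no filter 157 (115 and 42). At least 10 counts in every sample gave 284 lower. Leaving out 1 sample gave 26 to 1652 calls, 11 to 1206 higher and 15 to 446 lower. Without day 3 replicates 1 and 2, 2417 genes were called against healthy (1083 lower), and without replicates 3 and 4, 6245 (2872 and 3373), and 6133 against day 7 (3226 and 2907), both chosen after seeing the data. With the replicate number as a block, 1385 genes were called against healthy and 244 against day 7 (199 and 45). The numbers are not stated to pair mice, and correlations of same-numbered samples between healthy and day 3 ran from -0.232 to 0.0577. Whether same-numbered samples share a batch was not tested. The log2 fold change against healthy changed sign for Stab1 (-0.07) with no filter on low counts, Ccnd1 (-0.37), Nid1 (-0.20) and Stab1 (-0.09) in limma, Cdkn1a (-0.04), Pcna (-0.03) and Stab1 (-0.03) without healthy replicate 4, Ccnd1 (-0.09) without day 3 replicate 3, Stab1 (-0.21) without day 3 replicate 4, Adamts1 (0.19), Fabp4 (-0.29), Fabp5 (-0.07), Stab2 (0.14) and Vwa1 (-0.48) without day 3 replicates 1 and 2 and Ccnd1 (-0.49), Nid1 (-0.41) and Stab1 (-0.28) without day 3 replicates 3 and 4. With single samples left out, the highest values were 0.54 for Ccnd1, 0.45 for Cdkn1a, 0.41 for Pcna and 0.26 for Stab1. None of these genes was called in the reported fit. The cause was not tested for any of these changes. With 1 sample left out, the median log2 fold change of some lists near 0 changed sign, to as low as -0.18 for p53 targets, -0.10 for lysosome genes, -0.14 for cholangiocyte markers and -0.02 for the TGF-beta and activin family, and as high as 0.27 for lymphocyte markers. Without day 3 replicates 3 and 4, the median of the cyclins, E2F factors and inhibitors was -0.27 and that of Kupffer cell markers 0.18, and without replicates 1 and 2 that of erythroid markers was -0.97.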

Other observations

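Some of the groups not described above changed in a few members. Of 22 lysosome and proton pump genes 4 were called higher and 2 lower, with a median log2 fold change of 0.11. Ctsb, cathepsin B, was at 1780.2, 2155, 2260.2 and 2165 CPM in the healthy samples and 3285, 3113, 2995 and 3388 CPM at day 3 (log2 fold change 0.61, standard error 0.16, edgeR adjusted p = 0.0317), and Tfeb, a transcription factor of lysosomal genes, at 13.97, 14.7, 14.3 and 16.4 CPM in the healthy samples and 8.03, 6.86, 7.56 and 9.21 CPM at day 3 (log2 fold change -0.91, standard error 0.19, edgeR adjusted p = 0.0121). The groups did not overlap in either gene. Of 15 genes of large vessel endothelium 2 were called higher and 3 lower (median -0.13), among them Sox17, an arterial transcription factor, with log2 fold change -0.74, standard error 0.19, edgeR adjusted p = 0.0302. Cholangiocyte and erythroid markers had 1 of 7 tested called higher each. The cholangiocyte sums are given with the samples, and the erythroid markers summed to 348 to 533 CPM in healthy samples and to 1130.2, 1292, 238 and 173 CPM at day 3. With samples left out, called rises among the lysosome genes numbered 1 without healthy replicate 1, 2 or 4 or day 3 replicate 1 and 2 without healthy replicate 3, and called falls 1 without healthy replicate 1. Rises among large vessel genes numbered 0 without healthy replicate 1 or 3 and 1 without healthy replicate 2 or 4 or day 3 replicate 1 or 2, and falls 1 without healthy replicate 2. The rises numbered 0 without healthy replicate 1, 2, 3 or 4 or day 3 replicate 1 or 2 and 2 without day 3 replicate 3 among cholangiocyte markers, and 0 without healthy replicate 1, 2, 3 or 4 or day 3 replicate 1, 2 or 4 among erythroid markers. Leaving out each sample in turn, the call of Tfeb held. This was not so for Ctsb without healthy replicate 1, 2, 3 or 4 or day 3 replicate 1, 3 or 4 (adjusted p up to 0.134) and Sox17 without healthy replicate 1, 2 or 4 or day 3 replicate 1 or 2 (adjusted p up to 0.0904). Exons of Ctsb and Sox17 overlap those of another annotated gene.

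Outside the lists, and chosen after their values were seen, Selenop, the plasma carrier of selenium, was at 29162, 25974, 28329.7 and 21921 CPM in the healthy samples and 6816, 5151, 7303 and 6697 CPM at day 3 (log2 fold change -2.02, standard error 0.27, edgeR adjusted p = 0.00163). Steap2, a metalloreductase related to Steap1, was at 1.83, 1.06, 2.36 and 1.36 CPM in the healthy samples and 23.5, 39.8, 34.9 and 39.1 CPM at day 3 (log2 fold change 4.37, standard error 0.31, edgeR adjusted p = 2.78e-05), and Tnf, the cytokine, at 26.9, 35.6, 25.9 and 42.6 CPM in the healthy samples and 332, 209, 169 and 195 CPM at day 3 (log2 fold change 2.79, standard error 0.29, edgeR adjusted p = 0.000607). Tnf was also higher at day 3 than at day 7 (log2 difference 1.62, standard error 0.28, edgeR adjusted p = 0.014). The groups did not overlap in the 3 genes. Exons of Selenop overlap those of another annotated gene.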
